A study of Mus musculus with 15 samples.

Results

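The C-type lectin receptor genes described here are the protein-coding Clec genes of the mouse, 29 of the 38315 genes in the table of normalized counts. They were taken by name, as every protein-coding gene whose symbol is Clec followed by a digit, without Clec9a and Clec10a. Of the 29 genes, 21 had a normalized count of at least 10 in at least 1 library and are called measured, and 8 did not. Among the measured genes, 20 also passed the filter for testing, a normalized count of at least 10 in at least 4 libraries. Clec7a, which encodes the β-glucan receptor Dectin-1, is annotated in the table as a polymorphic pseudogene and therefore falls outside the rule, and its values are given once beside its signalling relatives.

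The levels were compared over 3 groups of mouse bone marrow. The AML group consisted of 7 marrows with acute myeloid leukaemia from mice of the genotype NUP98NSD1/FLT3ITD. NUP98-NSD1 is a fusion of a nucleoporin gene with a gene for a histone methyltransferase, and FLT3-ITD carries a repeated segment within a receptor tyrosine kinase. The normal tissue came from wild-type mice, as whole marrow (4 samples) and as lineage-negative marrow (4 samples), the latter depleted of cells that carry surface markers of mature blood lineages. Strain, age, and the promoters or alleles through which the transgenes act are not given in the sources used here. Both normal groups differ from the AML group in genotype and in cell make-up together. In bulk RNA, fewer cells of a type and less RNA per cell cannot be told apart, which applies to every difference given below.

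C-type lectin receptors are transmembrane proteins that bind glycans, glycolipids, crystals, dead-cell material or other proteins through a lectin-like domain. The activating receptors of the Clec4 group pair with the adaptor FcRγ (Fcer1g), and Clec5a with DAP12 (Tyrobp) and DAP10 (Hcst). FcRγ and DAP12 carry activating signals to the kinase Syk, which in myeloid cells works through Card9, Bcl10 and Malt1 on NF-κB. Other members, among them Clec4a2 and Clec12a, carry an inhibitory tail motif that recruits the phosphatases SHP-1 (Ptpn6) and SHP-2 (Ptpn11). The Clec2 proteins have another role, as cell-surface ligands for NKR-P1 receptors (Klrb1 genes) of natural killer cells. In marrow, most receptors of the Clec4 and Clec5 groups are known from neutrophils, monocytes, macrophages and dendritic cells.

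Of the 29 genes, 23 lie on chromosome 6. A run of 9 of them reaches from Clec4a1 to Clec4e over 360 kb between the outermost starts in the table, and a run of 11 reaches from Clec2h to Clec1a over 762.4 kb. The promoters of 4 neighbours in the first run are shown because 3 of the genes (Clec4a1, Clec4a3 and Clec4b1) were higher in AML than in both normal groups, and the fourth (Clec4a2) was not called higher than in whole marrow. Each is the stretch of 250 bases before a RefSeq transcription start, on the plus strand of build GRCm38.p6, printed 5′ to 3′. Capitals mark GAGGAA or its reverse complement TTCCTC, a core found in binding sites of the myeloid factor PU.1. For Clec4a3, the second of its RefSeq starts is shown.

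Clec4a1 (chr6:122921598-122921847, plus strand): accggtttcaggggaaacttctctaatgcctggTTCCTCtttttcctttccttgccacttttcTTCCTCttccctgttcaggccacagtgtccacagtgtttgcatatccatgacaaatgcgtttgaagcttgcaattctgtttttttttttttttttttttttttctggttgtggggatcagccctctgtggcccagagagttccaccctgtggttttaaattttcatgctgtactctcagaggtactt
Clec4a3 (chr6:122952394-122952643, plus strand): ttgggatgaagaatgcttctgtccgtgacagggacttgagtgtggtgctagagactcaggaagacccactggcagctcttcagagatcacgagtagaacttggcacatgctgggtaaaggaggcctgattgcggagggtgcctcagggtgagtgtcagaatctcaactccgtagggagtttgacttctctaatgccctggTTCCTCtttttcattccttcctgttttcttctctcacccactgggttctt
Clec4b1 (chr6:123049712-123049961, plus strand): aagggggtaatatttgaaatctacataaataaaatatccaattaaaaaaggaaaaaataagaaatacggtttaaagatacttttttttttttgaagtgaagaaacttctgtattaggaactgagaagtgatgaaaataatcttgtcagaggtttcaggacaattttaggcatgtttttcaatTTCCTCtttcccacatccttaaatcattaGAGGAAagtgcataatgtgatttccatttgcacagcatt
Clec4a2 (chr6:123122440-123122689, plus strand): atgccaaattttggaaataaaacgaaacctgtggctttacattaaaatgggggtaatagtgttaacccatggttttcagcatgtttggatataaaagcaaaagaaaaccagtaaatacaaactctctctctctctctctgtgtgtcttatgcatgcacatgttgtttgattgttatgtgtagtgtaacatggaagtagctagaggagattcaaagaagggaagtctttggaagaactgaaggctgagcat

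The windows of Clec4a1 and Clec4b1 each held the core at 2 places, that of Clec4a3 at 1 place, and that of Clec4a2 at none. The other Clec4a3 window in the table, before the first of its starts, held the core at 0 places. The longest run of letters shared by the windows of Clec4a1 and Clec4a3 shown was 17 bases and contained the core (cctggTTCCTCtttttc), and with the other Clec4a3 window it was 8 bases without the core. Of the 20 tested genes, 17 had RefSeq promoters in the reference table, 19 windows in all because Clec4a3 and Clec2i have 2 each, and 11 of the 19 windows held GAGGAA on either strand, against 23.3% of all 32851 promoter windows of the same length. The 11 windows belonged to genes that were higher in AML than in whole marrow (Clec4a1, Clec4a3, Clec4b1, Clec11a, Clec16a), a gene that was lower (Clec14a) and genes that did not pass (Clec4b2, Clec4d, Clec4e, Clec5a, Clec12a). The longer form GAGGAAGT was found in 0 of the 19, against 2.44% of all windows, and it overlaps the core. The RUNX core TGTGGT occurred in 6 of the 19, against 14.0% of all windows. TTGCNNAA, a form of the C/EBP site, occurred in 4, against 9.56%. The erythroid core AGATAA was found in 0, against 9.99%. These motifs were searched on both strands and were chosen with the expression results known, and a match of letters is a description of the window only.

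The values are normalized counts, that is, the authors' estimated read counts divided by 1 size factor per library. Estimated depth was 11.4 to 17.2 M reads (M, mega) for whole marrow, 20.3 to 35.1 M for AML and 20.3 to 28.1 M for lineage-negative marrow, and 3 reads corresponded to a normalized count of 1.96 to 4.09. Olfactory and vomeronasal receptor genes, 1452 genes that marrow is not known to use, averaged 9.62 ± 2.72 normalized counts in whole marrow (SD, n = 4), 1.16 ± 1.20 in AML (n = 7) and 0.446 ± 0.0562 in lineage-negative marrow (n = 4), so values under about 10 in whole marrow are near this background. The median log2 difference over all 18941 genes tested was 0.67 between AML and whole marrow, 0.02 between AML and lineage-negative marrow and 0.59 between lineage-negative and whole marrow. Differences from whole marrow are therefore given also after TMM scaling (a trimmed mean of log ratios between libraries), which brings these medians to −0.01, 0.03 and −0.09. The lineage-negative libraries were low in neutrophil transcripts: the 10 neutrophil markers summed to 976 to 17112 normalized counts there, against 430275 to 1149280 in whole marrow. Their B cell and erythroid marker sums were also below those of whole marrow. Some other marker sums were not low: dendritic cell markers summed to 7788 to 12374, against 3407 to 5350 in whole marrow. Megakaryocyte and platelet markers summed to 3107 to 4206, against 858 to 2360, and eosinophil and basophil sums overlapped. Under the call rule defined below, 0 of 12 monocyte and macrophage markers were higher than in whole marrow and 7 lower (backgrounds 33.1% and 17.2%). For T and natural killer cells 1 of 9 was higher and 7 lower, and for dendritic cells 3 of 10 and 2. With TMM scaling these were 0 and 9, 0 and 7, and 2 and 4 (backgrounds 11% and 24.8%). Whole marrow replicate 1, the shallowest library, had the lowest value of its group for 15 of the 20 tested members. The labels do not say whether samples of a group came from separate mice, so p-values measure the spread between these samples, which may be technical.

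Across the tested Clec genes, more members were called higher in AML than in lineage-negative marrow than were called higher than in whole marrow. A gene is called here when its limma test has a Benjamini-Hochberg adjusted p under 0.05 over all 18941 genes and its log2 difference is at least 1 in size. Against whole marrow, 10 of the 20 tested members were called higher, with 27.3% of all tested genes called higher, and 2 were called lower, with a background of 11.3%. With TMM scaling the same comparison called 4 members higher (background 4.73%) and 3 lower (background 16%), and without whole marrow replicate 1 it called 8 higher on the deposited scaling. Against lineage-negative marrow, 14 of 20 were called higher (background 17.7%) and 0 lower (background 12.5%), and TMM scaling called the same 14 (background 17.6%) and 0 lower (background 12.4%). With an unadjusted p under 0.05, 0 members were lower in AML than in lineage-negative marrow, and limma voom on estimated reads also called 0 lower. Of the 20 tested members, 3 passed the filter only through the group in which they were highest, Clec2g and Clec4g through AML and Clec14a through whole marrow, so their differences were favoured by the filter. Without these 3 the calls were 9 of 17 higher and 1 lower against whole marrow, and 12 of 17 higher and 0 lower against lineage-negative marrow.

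The median log2 difference of the 20 members was 0.90 against whole marrow, where the median of all genes was 0.67 (0.23 and −0.01 with TMM scaling), and 2.17 against lineage-negative marrow, where it was 0.02. Between the normal groups, 1 member was called higher in lineage-negative marrow than in whole marrow (Clec11a; background 33.1%) and 11 were called lower (background 17.2%). With TMM scaling these were 1 (background 11%) and 13 (background 24.8%), Clec2d and Clec2i being added. The median difference of lineage-negative from whole marrow was −1.93 for the members and 0.59 for all genes. Both AML comparisons use the same AML libraries, and the 3 comparisons pairwise share a group, so they are not independent of each other.

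Higher in AML than in both normal groups were 7 members, Clec4b1, Clec4a1, Clec4a3, Clec2d, Clec2g, Clec2i and Clec1a, with 7.2% of all genes called in this way. Of these, Clec2g had passed the filter only through AML. With TMM scaling Clec4b1, Clec4a1 and Clec4a3 passed in both comparisons, against 2.82% of all genes. With 0 lower than lineage-negative marrow at an unadjusted p, 0 members were lower in AML than in both (limma; background 3.12%). Libraries that did not overlap were found for 6 members above whole marrow (background 35.8%) and 1 below it (background 7.88%), and for 12 above lineage-negative marrow (background 17%) and 0 below it (background 17.6%). Lineage-negative libraries lay wholly above whole marrow for 2 members (background 41.1%) and wholly below for 13 (background 16.6%).

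**Figure D1:**
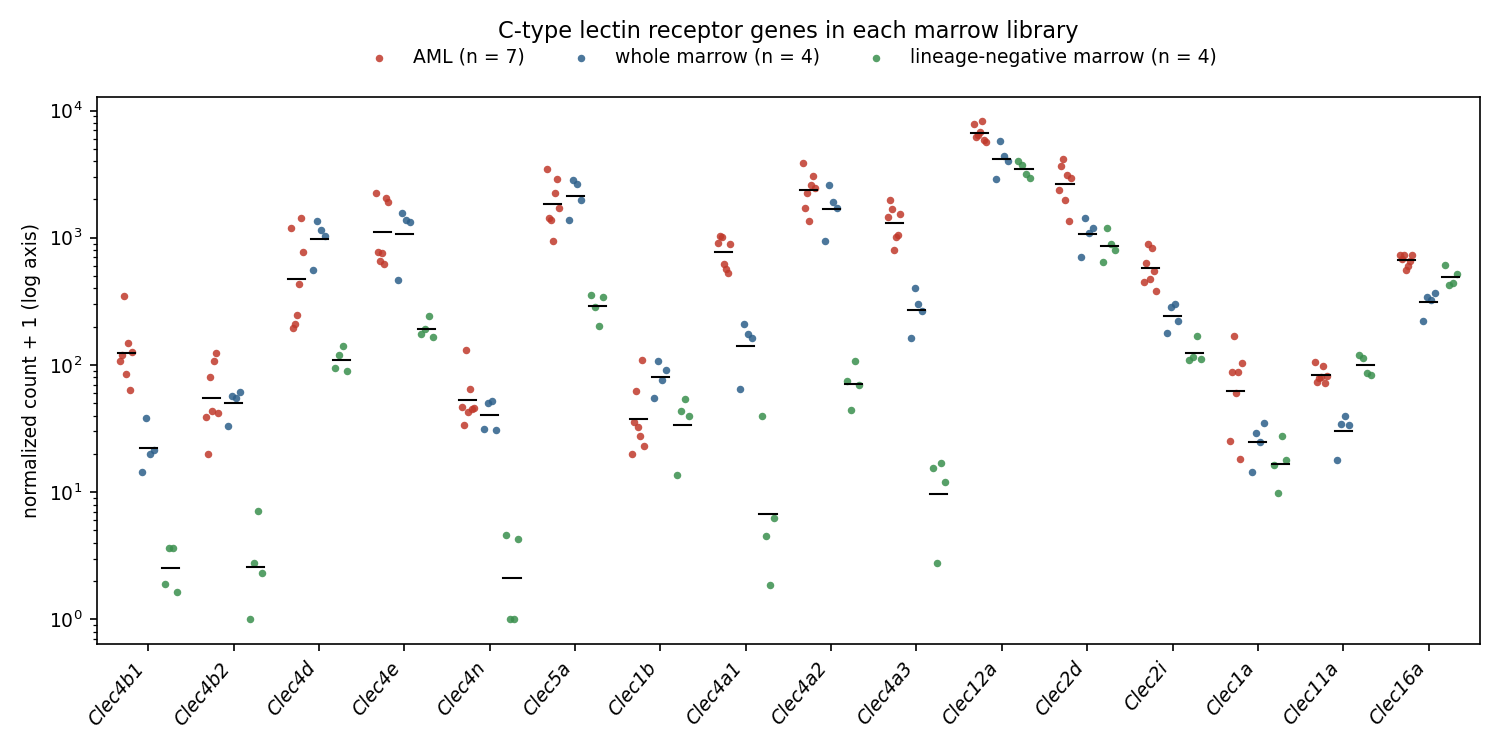
Normalized count plus 1 (log axis) of the 16 Clec genes described in full in the text; each point is 1 library of AML (n = 7), whole marrow (n = 4) or lineage-negative marrow (n = 4), and each bar is the mean on the log scale. Clec4a1, Clec4a3 and Clec4b1 are the genes of the Clec4 group whose AML libraries all lie above all normal libraries.

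**Figure D2:**
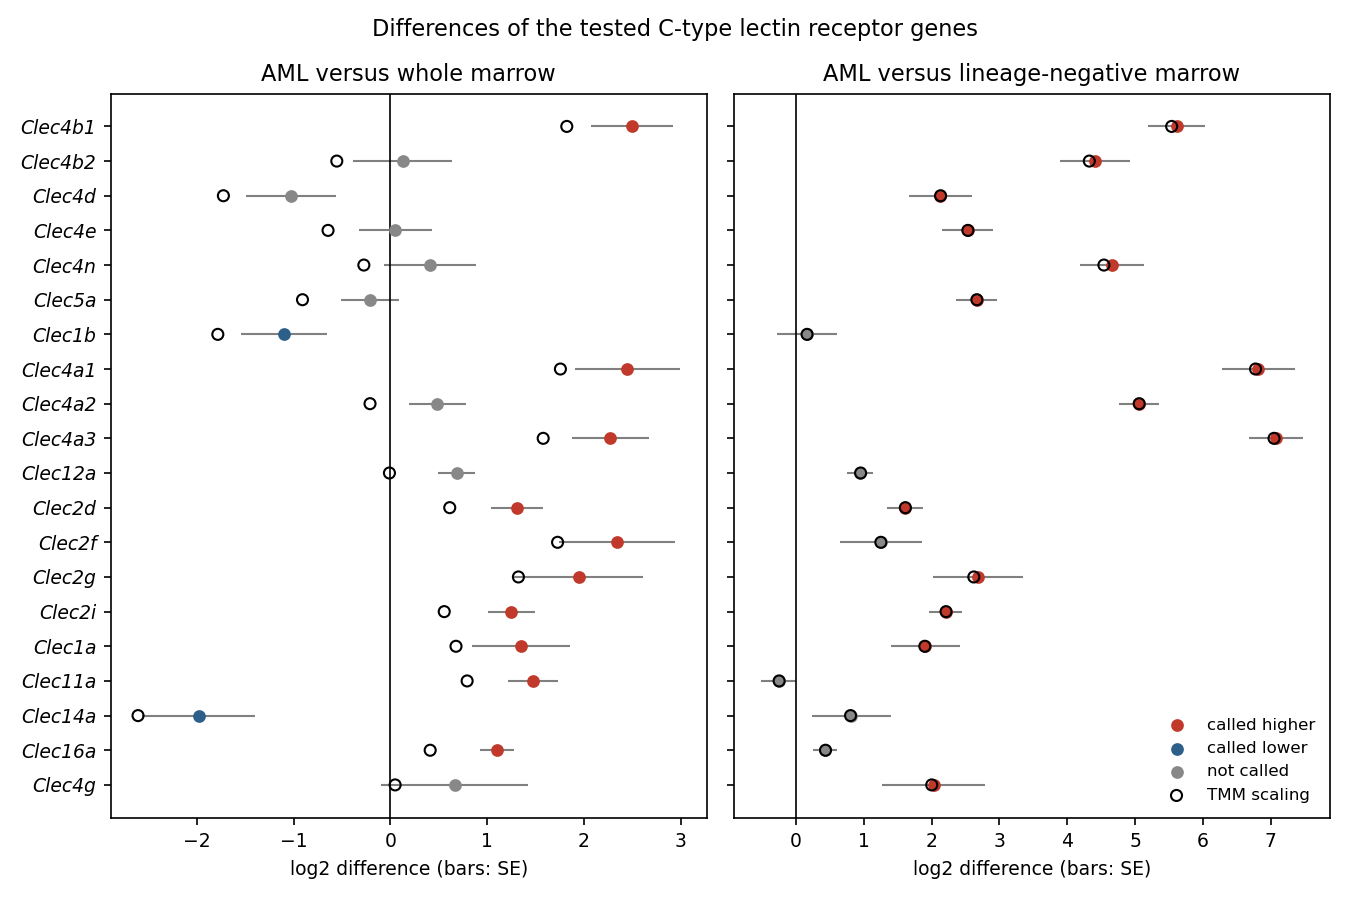
Log2 difference of AML from whole marrow (left) and from lineage-negative marrow (right) for the 20 tested Clec genes, with bars of 1 SE; filled points are the deposited scaling, coloured by the call, and open circles are TMM scaling. The open circles lie to the left of the filled points against whole marrow and on or near them against lineage-negative marrow.

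Among the 7 receptors coupled to activating signals, Clec4b1 was called higher in AML than in whole marrow, Clec1b was called lower, and the other 5 did not pass. Against lineage-negative marrow 6 of the 7 were called higher and Clec1b did not pass. Between the normal groups all 7 were called lower in lineage-negative marrow.

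Clec4b1 encodes a dendritic cell immunoactivating receptor that pairs with FcRγ. In the AML libraries Clec4b1 ranged from 62.9 to 344 with a median of 119, and in whole marrow replicates 1 to 4 it was 13.5, 37.5, 18.8 and 20.5. The lineage-negative replicates 1 to 4 held 0.908, 2.64, 2.64 and 0.653. Every AML library lay above every whole marrow library, and the 4 lineage-negative libraries were at or under the value of 3 reads. The AML mean was 142 ± 93.7 (SD, n = 7), or 108 without replicate 3, against 22.6 ± 10.4 in whole marrow (n = 4). On the log2(value + 1) scale AML exceeded whole marrow by 2.50 (SE 0.42, adjusted p = 6.64e-05, limma), and by 1.82 with TMM scaling. On the same scale AML exceeded lineage-negative marrow by 5.61 (SE 0.42, adjusted p = 2.32e-09, limma), a fold of 48.9. The AML mean, which includes replicate 3 at 344, was 56.9-fold the value of 3 reads, taken as the mean over the lineage-negative libraries.

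Clec4b2, a paralog of Clec4b1 that lies beyond Clec4a2 in the same run, also encodes an activating receptor. For Clec4b2 the lowest, median and highest AML libraries had 19.1, 42.2 and 122, beside 32.3, 56.3, 54.3 and 60.03 in the 4 whole marrow libraries. The 4 lineage-negative libraries had 0, 1.76, 6.17 and 1.30. The AML libraries fell on both sides of the whole marrow libraries, with 3 above all of them and 1 below. The log2 difference was 0.13 from whole marrow (SE 0.51, adjusted p = 0.84, limma), −0.55 with TMM scaling, and 4.40 from lineage-negative marrow (SE 0.51, adjusted p = 8.64e-07). Reads of such close paralogs may have been divided between them by the authors' quantification, so the split between Clec4b1 and Clec4b2 is uncertain.

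Clec4d and Clec4e encode MCL and Mincle, which bind mycobacterial glycolipids and, in the case of Mincle, a nuclear protein released by dying cells. Clec4d lay between 195 and 1419 in AML (median 429) and measured 558, 1361, 1158 and 1033 in whole marrow replicates 1 to 4. Its lineage-negative values were 93.5, 119, 139 and 88.8. Whole marrow replicates 1 to 4 held 466, 1561, 1368 and 1326 normalized counts of Clec4e, and lineage-negative replicates 1 to 4 held 175, 190.4, 242 and 166. The 7 AML libraries spanned 616 to 2230, with 772 at the median. In both genes AML replicates 1, 6 and 7 were the 3 highest AML libraries, while the other 4 lay between 195 and 429 for Clec4d and between 616 and 772 for Clec4e. Clec4d averaged 638 ± 503 in AML and 1028 ± 341 in whole marrow, a log2 difference of −1.03 (SE 0.47, adjusted p = 0.0598, limma). With TMM scaling Clec4d was called lower than in whole marrow, at −1.73 (adjusted p = 0.00724), and leaving out AML replicate 1, 6 or 7 or whole marrow replicate 1 also brought the call, at −1.15 to −1.30. Clec4e differed from whole marrow by 0.05 (SE 0.38, adjusted p = 0.915), or −0.65 with TMM scaling. Both rose against lineage-negative marrow, Clec4d by 2.13 (adjusted p = 0.000903) and Clec4e by 2.53 (adjusted p = 1.83e-05).

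Clec4n encodes Dectin-2, a receptor for fungal mannans. In the AML libraries Clec4n ranged from 32.6 to 131 with a median of 45.3, and in whole marrow replicates 1 to 4 it was 30.5, 49.6, 51.1 and 30.02. The lineage-negative replicates 1 to 4 held 3.63, 0, 0 and 3.26. The value of AML replicate 3 was more than that of any other library, and 2 lineage-negative libraries were at 0. Clec4n differed from whole marrow by 0.41 (SE 0.47, adjusted p = 0.464, limma) and by −0.27 with TMM scaling, and it exceeded lineage-negative marrow by 4.65 (SE 0.47, adjusted p = 1.45e-07).

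Clec5a encodes MDL-1, a DAP12-coupled receptor of neutrophils and monocytes. For Clec5a the lowest, median and highest AML libraries had 943, 1700 and 3442, beside 1382, 2858, 2663 and 1977 in the 4 whole marrow libraries. The 4 lineage-negative libraries had 357, 286, 202 and 344. Its AML mean of 2010 ± 900 and whole marrow mean of 2220 ± 674 differed by less than the spread within either group (log2 difference −0.21, SE 0.30, adjusted p = 0.544, limma). With TMM scaling the difference was −0.91 (adjusted p = 0.0143), short of the size needed for a call. All AML libraries lay above the lineage-negative libraries, with a log2 difference of 2.66 (SE 0.30, adjusted p = 5.27e-07).

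Clec1b encodes CLEC-2, the platelet receptor for podoplanin, whose single tail motif engages Syk directly. Clec1b lay between 19.1 and 109 in AML (median 31.6) and measured 54.3, 106, 75.7 and 90.05 in whole marrow replicates 1 to 4. Its lineage-negative values were 12.7, 42.1, 52.99 and 38.4. AML replicate 6 was the highest of all libraries and 5 of the 7 AML libraries lay below all whole marrow libraries. The log2 difference from whole marrow was −1.10 (SE 0.44, adjusted p = 0.0369, limma), or −1.79 with TMM scaling, and the call was lost in 8 of the 11 fits that left out a single library, every one except those without AML replicate 3, AML replicate 6 or whole marrow replicate 1. From lineage-negative marrow it differed by 0.16 (SE 0.44, adjusted p = 0.794). The 10 megakaryocyte and platelet markers summed to 197 to 831 normalized counts in AML, 858 to 2360 in whole marrow and 3107 to 4206 in lineage-negative marrow, and AML was below whole marrow by the call rule for 9 of the 10; Pf4, Gp6 and Treml1 were each at 0 in 1 or 2 AML libraries. The part of these cells in the Clec1b level was not tested.

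The Clec4a genes encode the DCIR family of dendritic cell receptors, and Clec12a encodes MICL, a receptor for uric acid crystals that is studied in human AML under the name CLL-1. Of the 4 tested genes of this group, Clec4a1 and Clec4a3 were called higher in AML than in whole marrow and Clec4a2 and Clec12a did not pass. All except Clec12a were called higher than in lineage-negative marrow. Reads of the Clec4a paralogs may also have been divided between them by the authors' quantification. The split among Clec4a1, Clec4a2, Clec4a3 and Clec4a4 is therefore uncertain, and this was not tested.

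Clec4a1 encodes DCIR4. Whole marrow replicates 1 to 4 held 63.7, 208, 175 and 161 normalized counts of Clec4a1, and lineage-negative replicates 1 to 4 held 39.03, 3.52, 0.881 and 5.22. The 7 AML libraries spanned 523 to 1028, with 885 at the median. The lowest AML library, at 523, lay above the highest whole marrow library, at 208. AML averaged 792 ± 216 against 152 ± 62.0 in whole marrow, a log2 difference of 2.45 (SE 0.54, adjusted p = 0.000694, limma), or 1.76 with TMM scaling. In lineage-negative marrow replicate 1, at 39.0, stood apart from the other 3. That library also had the highest sums of its group for the markers of neutrophils (17112 against 976 to 8231), erythroid cells (48587 against 5221 to 10078), monocytes and macrophages (29727 against 18941 to 26875), dendritic cells (12374 against 7788 to 10069) and T and natural killer cells (1945 against 1438 to 1613). The part of these cells in its Clec4a1 level was not tested. The difference from lineage-negative marrow was 6.82 (SE 0.54, adjusted p = 4.96e-09), and 7.67 without that library.

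Clec4a3 encodes DCIR3 and lies next to Clec4a1. In the AML libraries Clec4a3 ranged from 795 to 1991 with a median of 1461, and in whole marrow replicates 1 to 4 it was 162, 403, 298 and 266. The lineage-negative replicates 1 to 4 held 14.5, 1.76, 15.9 and 11.1. The AML libraries all lay above all normal libraries. The mean was 1361 ± 425 in AML, 282 ± 99.6 in whole marrow and 10.8 ± 6.36 in lineage-negative marrow. AML exceeded whole marrow by 2.27 (SE 0.40, adjusted p = 9.06e-05, limma), by 1.58 with TMM scaling, and it exceeded lineage-negative marrow by 7.07 (SE 0.40, adjusted p = 8.01e-11).

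Clec4a2 encodes DCIR1, the inhibitory receptor with the tail motif described above. For Clec4a2 the lowest, median and highest AML libraries had 1364, 2470 and 3846, beside 943, 2595, 1915 and 1699 in the 4 whole marrow libraries. The 4 lineage-negative libraries had 73.5, 43.2, 107 and 69.2. In AML the values overlapped those of whole marrow, where replicate 2 reached 2595. The log2 difference from whole marrow was 0.49 (SE 0.29, adjusted p = 0.153, limma) and −0.21 with TMM scaling. The difference from lineage-negative marrow was 5.06 (SE 0.29, adjusted p = 1.03e-10). Clec4a4, which encodes DCIR2 of a subset of dendritic cells, was measured and not tested. It ranged from 2.83 to 19.6 in AML and from 0 to 5.23 in whole marrow, and it was at 0 in all 4 lineage-negative libraries.

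Clec12a was well covered in every library. Clec12a lay between 5642 and 8197 in AML (median 6397) and measured 2897, 5719, 4377 and 4000 in whole marrow replicates 1 to 4. Its lineage-negative values were 4017, 3723, 3190 and 2936. Its AML values varied less than those of most members, between 5642 and 8197. The log2 difference was 0.69 from whole marrow (SE 0.19, adjusted p = 0.00409, limma), −0.01 with TMM scaling, and 0.95 from lineage-negative marrow (SE 0.19, adjusted p = 0.000392). Neither reached the size of 1 needed for a call; without lineage-negative replicate 1 the second came to 1.02. Clec12b, which encodes an inhibitory relative, was not measured.

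**Figure D3:**
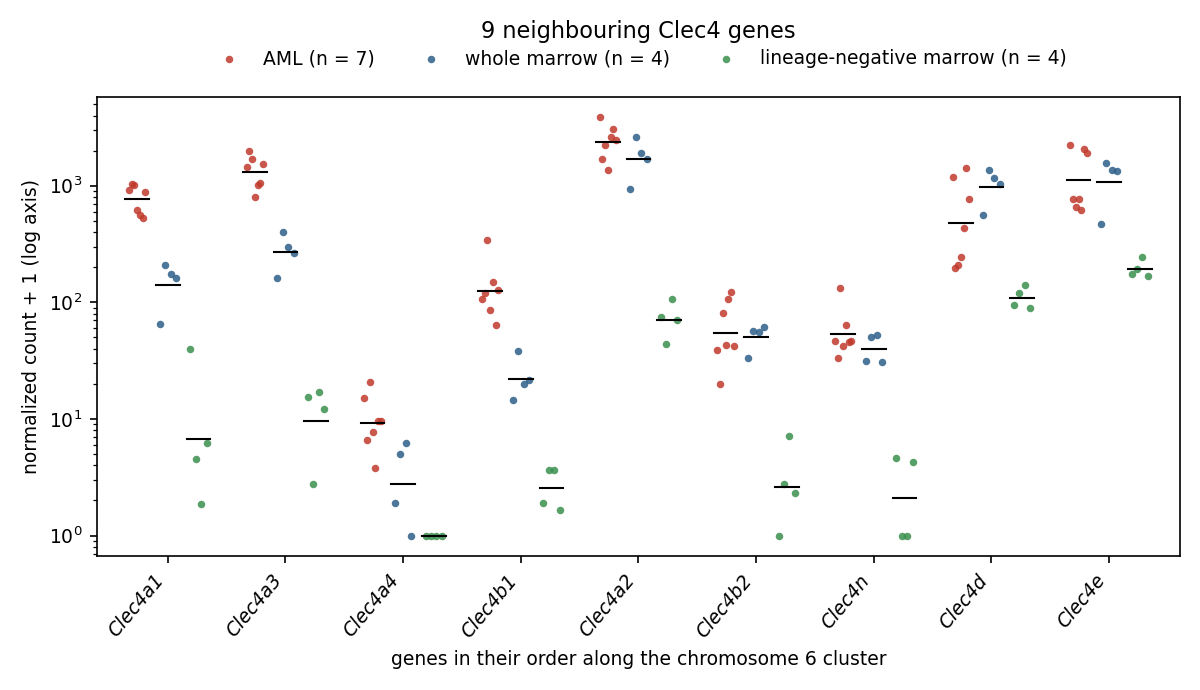
Normalized count plus 1 (log axis) of the 9 neighbouring Clec4 genes in their order on chromosome 6; points are libraries and bars are means on the log scale. AML and whole marrow libraries separate for Clec4a1, Clec4a3 and Clec4b1 and overlap for Clec4a2, Clec4b2, Clec4n, Clec4d and Clec4e.

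Along the run of 9 neighbours, the log2 difference of AML from whole marrow went from 2.45 at Clec4a1 and 2.27 at Clec4a3 to 2.50 at Clec4b1, 0.49 at Clec4a2, 0.13 at Clec4b2, 0.41 at Clec4n, −1.03 at Clec4d and 0.05 at Clec4e. The called genes thus lay at the Clec4a1 end. Against lineage-negative marrow every tested neighbour was called higher, from 2.13 at Clec4d to 7.07 at Clec4a3. Clec4a1, Clec4a3 and Clec4b1 were called higher than whole marrow, and higher than lineage-negative marrow, under all 22 alternative settings run for each comparison, the fits without a single library included.

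The Clec2 genes encode ligands of NKR-P1 receptors. All 4 tested genes (Clec2d, Clec2f, Clec2g and Clec2i) were called higher in AML than in whole marrow, and Clec2d, Clec2g and Clec2i also higher than in lineage-negative marrow. With TMM scaling Clec2f alone of the 4 was called against whole marrow. Clec2e, Clec2h, Clec2l and Clec2m were not measured.

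Clec2d encodes Clr-b, the ligand that many blood cells display to the inhibitory receptor NKR-P1B. Whole marrow replicates 1 to 4 held 699, 1416, 1092 and 1190 normalized counts of Clec2d, and lineage-negative replicates 1 to 4 held 644, 1201, 899.9 and 806. The 7 AML libraries spanned 1344 to 4130, with 2970 at the median. All AML libraries except replicate 6, at 1344, lay above all whole marrow libraries. The mean was 2803 ± 971 in AML, 1099 ± 299 in whole marrow and 888 ± 234 in lineage-negative marrow. AML exceeded whole marrow by 1.31 (SE 0.27, adjusted p = 0.000397, limma) and lineage-negative marrow by 1.61 (SE 0.27, adjusted p = 6.47e-05). With TMM scaling the former was 0.61 (adjusted p = 0.0505).

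Clec2i encodes Clr-g, a ligand of NKR-P1F. In the AML libraries Clec2i ranged from 379.7 to 887 with a median of 548, and in whole marrow replicates 1 to 4 it was 179, 283, 302 and 221. The lineage-negative replicates 1 to 4 held 108, 115, 169 and 111. The AML libraries lay above all normal libraries. AML exceeded whole marrow by 1.25 (SE 0.24, adjusted p = 0.00024, limma), by 0.56 with TMM scaling, and exceeded lineage-negative marrow by 2.21 (SE 0.24, adjusted p = 4.13e-07). Lineage-negative marrow was lower than whole marrow by 0.96 (adjusted p = 0.0049) and, with TMM scaling, by 1.66, at which it was called.

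Clec2f and Clec2g were low. Clec2f ranged from 4.31 to 76.5 in AML, from 2.09 to 10.9 in whole marrow and from 5.29 to 26.4 in lineage-negative marrow. Its log2 difference from whole marrow was 2.34 (SE 0.60, adjusted p = 0.00237, limma), or 1.73 with TMM scaling (adjusted p = 0.0390). Clec2g ranged from 7.63 to 114 in AML, from 2.68 to 10.8 in whole marrow and from 0 to 8.17 in lineage-negative marrow. The highest Clec2g value was in AML replicate 6; the AML mean was 32.8 ± 36.8 with that library and 19.3 without it. Clec2g exceeded whole marrow by 1.95 (SE 0.66, adjusted p = 0.0154, limma) but passed the filter only through AML, where 5 libraries reached 10 against 1 of whole marrow and 0 of lineage-negative marrow. The call was lost with TMM scaling (1.32, adjusted p = 0.159), with a pseudocount of 0.1 (adjusted p = 0.0648), with limma voom (adjusted p = 0.273), with the replicate number as a block (1.63, adjusted p = 0.0537) and without whole marrow replicate 2 (1.70, adjusted p = 0.0562). In whole marrow the normalized counts of both genes were at or near the olfactory receptor mean, which does not allow for gene length. Per kilobase of exon, Clec2f averaged 9.55 in whole marrow and Clec2g 2.00, against 2.32 for the olfactory and vomeronasal genes.

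The receptors for these ligands were measured in the same libraries. Klrb1f, the receptor gene for Clr-g, averaged 593 ± 288 in AML, 164 ± 53.9 in whole marrow and 205 ± 32.7 in lineage-negative marrow. It was called higher than in both, by 1.77 (adjusted p = 7.78e-05, limma) and 1.40 (adjusted p = 0.000814), and by 1.08 against whole marrow with TMM scaling. Klrb1b, the receptor gene for Clr-b, averaged 82.6 ± 92.5 in AML and 27.9 ± 4.93 in whole marrow and did not pass (0.91, adjusted p = 0.17). The 9 markers of T and natural killer cells summed to 891 to 3715 in AML, 785 to 1459 in whole marrow and 1438 to 1945 in lineage-negative marrow. Against whole marrow 4 of the 9 were called higher and 0 lower (backgrounds 27.3% and 11.3%). With TMM scaling these were 0 and 2 (backgrounds 4.73% and 16%). Against lineage-negative marrow 5 were called higher and 1 lower (backgrounds 17.7% and 12.5%). The part of these cells in the Klrb1f level was not tested.

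The genes known from endothelium, stroma or secretion were low in all groups. Of the 3 tested, Clec11a and Clec1a were called higher in AML than in whole marrow and Clec14a lower. Clec3b, which encodes tetranectin, and Clec18a were not measured.

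Clec11a encodes a secreted growth factor of blood progenitors and bone, known as stem cell growth factor and osteolectin. For Clec11a the lowest, median and highest AML libraries had 71.6, 79.4 and 104, beside 17.1, 33.5, 38.6 and 32.7 in the 4 whole marrow libraries. The 4 lineage-negative libraries had 119, 113, 85.5 and 82.9. The AML and lineage-negative libraries overlapped, and both lay above all whole marrow libraries. The means were 83.4 ± 12.2 in AML, 30.5 ± 9.32 in whole marrow and 100.02 ± 18.5 in lineage-negative marrow. AML exceeded whole marrow by 1.47 (SE 0.26, adjusted p = 9.68e-05, limma), or 0.79 with TMM scaling. It differed from lineage-negative marrow by −0.25 (SE 0.26, adjusted p = 0.45). Clec11a was the member called higher in lineage-negative than in whole marrow, by 1.72 (SE 0.29, adjusted p = 4.45e-05), or 1.04 with TMM scaling.

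Clec1a encodes CLEC-1, found on endothelium and dendritic cells and known to bind a fungal melanin. Clec1a lay between 17.3 and 169 in AML (median 87.7) and measured 13.5, 28.1, 24.002 and 34.1 in whole marrow replicates 1 to 4. Its lineage-negative values were 15.4, 8.81, 26.4 and 16.97. AML replicates 1 and 6, at 24.2 and 17.3, lay within the range of the normal libraries and the other 5 lay above it. The log2 difference was 1.35 from whole marrow (SE 0.51, adjusted p = 0.0264, limma), 0.68 with TMM scaling, and 1.90 from lineage-negative marrow (SE 0.51, adjusted p = 0.00448). The call against whole marrow was lost without AML replicate 3 (1.11) or without whole marrow replicate 1 (1.09). That against lineage-negative marrow was lost when the olfactory receptor mean of each library was subtracted (1.88). Per kilobase of exon, Clec1a averaged 4.81 in whole marrow, against 2.32 for the olfactory and vomeronasal genes. AML replicates 1 and 6 also had the lowest sums of the 10 dendritic cell markers among the AML libraries, 18648 and 9366, against 29126 to 30681 in the other 5. That list holds Flt3, the gene altered in these mice, and the part of dendritic cells in the Clec1a level was not tested.

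Clec14a encodes an endothelial receptor that binds multimerin 2. It ranged from 0 to 13.5 in AML, from 20.1 to 24.6 in whole marrow and from 0.881 to 3.92 in lineage-negative marrow, so that each AML library lay below each whole marrow library. The log2 difference of AML from whole marrow was −1.98 (SE 0.58, adjusted p = 0.00616, limma), −2.61 with TMM scaling, and −1.36 with the call lost (adjusted p = 0.0588) when the olfactory receptor mean of each library was subtracted. That subtraction does not allow for gene length. Per kilobase of exon, Clec14a averaged 4.88 in whole marrow and 1.46 in AML, against 2.32 and 0.267 for the olfactory and vomeronasal genes. Clec14a passed the filter only through whole marrow, where 4 libraries reached 10 against 2 of AML and 0 of lineage-negative marrow. Mmrn2, the gene for multimerin 2, was 10.2 ± 5.95 in AML and 20.8 ± 10.4 in whole marrow and did not pass (−0.98, adjusted p = 0.136). The 9 stromal and endothelial markers summed to 1362 to 3383 in AML, 1474 to 2691 in whole marrow and 2238 to 3477 in lineage-negative marrow; AML was below whole marrow by the call rule for 2 of the 8 tested, and Bglap was at 0 in all whole marrow and 4 AML libraries. The part of these cells in the Clec14a level was not tested.

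Clec16a encodes an endosomal regulator of mitophagy and is a lectin by name rather than by known glycan binding. Whole marrow replicates 1 to 4 held 223, 343, 325 and 368 normalized counts of Clec16a, and lineage-negative replicates 1 to 4 held 605, 427, 443 and 520.2. The 7 AML libraries spanned 555 to 736, with 683 at the median. Its values varied little within AML, and all AML libraries lay above all whole marrow libraries. AML exceeded whole marrow by 1.11 (SE 0.17, adjusted p = 3.72e-05, limma), by 0.41 with TMM scaling and by 0.95, no longer called, without whole marrow replicate 1. Clec4g, which encodes the sinusoidal receptor LSECtin, ranged from 0 to 49.0 in AML and from 5.22 to 10.9 in whole marrow, and its lineage-negative libraries were at or under the value of 3 reads. It was called higher in AML than in lineage-negative marrow (2.03, SE 0.76, adjusted p = 0.0347, limma) after passing the filter only through AML (5 libraries at 10 or more, against 1 and 0 of the normal groups). That call was lost without any single lineage-negative library and without AML replicate 1, 2, 3, 5 or 7 (adjusted p = 0.0510 to 0.0844, limma). The AML mean of 19.7 was 7.92-fold the same floor. This does not hold for each AML library, since replicate 6 was at 0, replicate 4 at 3.38 and replicate 3 at 49.0. Clec4f, a receptor of Kupffer cells, was not measured.

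Per kilobase of exon, which allows genes to be compared, Clec2d had the highest mean level in each group, at 2310 normalized counts per kb in AML, 906 in whole marrow and 732 in lineage-negative marrow. Clec12a followed in all 3 groups, at 1212, 768 and 627 per kb, and in the normal groups the gap between the pair was under 1 SD of Clec2d (247 and 193 per kb). Below them the order differed. In AML the next members per kb were Clec4a3 at 1025 ± 320, Clec4a2 at 845 ± 283, Clec5a at 523 ± 234 and Clec4a1 at 508 ± 139. Clec4a3 and Clec4a2 lay within 1 SD of each other, as did Clec5a and Clec4a1. In whole marrow Clec4d came next, at 643 ± 213 per kb, followed by Clec4a2 at 611 ± 233 and Clec5a at 578 ± 176, again within 1 SD of each other. In lineage-negative marrow Clec5a came next, at 77.3 ± 18.4 per kb, far below Clec12a.

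The 7 AML marrows did not carry the same Clec profile. Clec16a and Clec11a varied least, with coefficients of variation of 10.6% and 14.7%, and Clec12a also had 14.7%. Among the 16 members described in full, Clec4d (78.8%), Clec1b (73.8%), Clec4b1 (66.1%) and Clec1a (66.0%) varied most. Replicate 6 was lowest of the 7 for Clec1a, Clec2d, Clec4b1, Clec4a1, Clec11a and Clec4g and highest for Clec4d, Clec4b2, Clec1b and Clec2g. That library had the highest olfactory and vomeronasal receptor mean among the AML libraries, 3.81 against 0.465 to 1.33 in the others. It also had the lowest estimated depth of the AML group, 20.3 M reads, and the smallest share of genes at 0, 23.6%. The part of this background in its Clec values was not tested. Replicate 3 was highest for Clec4b1, Clec4n, Clec1a, Clec2d, Clec2i and Clec4g.

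The neutrophil marker sum was highest in AML replicates 1 and 6, at 1388620 and 988884, and between 398909 and 731667 in the other 5. Of the tested members, Clec4e, Clec5a, Clec4a2 and Clec11a were highest in replicate 1, and Clec4d, Clec4b2, Clec1b and Clec2g in replicate 6. Replicate 7, also high for Clec4d and Clec4e, had a neutrophil sum of 620660, within the range of the other 4 libraries. The dendritic cell marker sum was lowest in replicate 6, in which Clec1a, Clec2d, Clec4b1, Clec4a1, Clec11a and Clec4g were lowest as well. Of the 10 neutrophil markers, 0 were called in either direction between AML and whole marrow by limma, 0 passed at an unadjusted p under 0.05, and 1 was called lower with TMM scaling. By contrast 8 of 10 dendritic cell markers and 8 of 12 monocyte and macrophage markers were called higher in AML (background 27.3%). With TMM scaling 6 and 4 were called higher (background 4.73%). With either scaling 0 dendritic cell markers and 1 monocyte and macrophage marker were called lower (backgrounds 11.3% and 16%). The part of these cell types in the receptor levels was not tested.

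**Figure D4:**
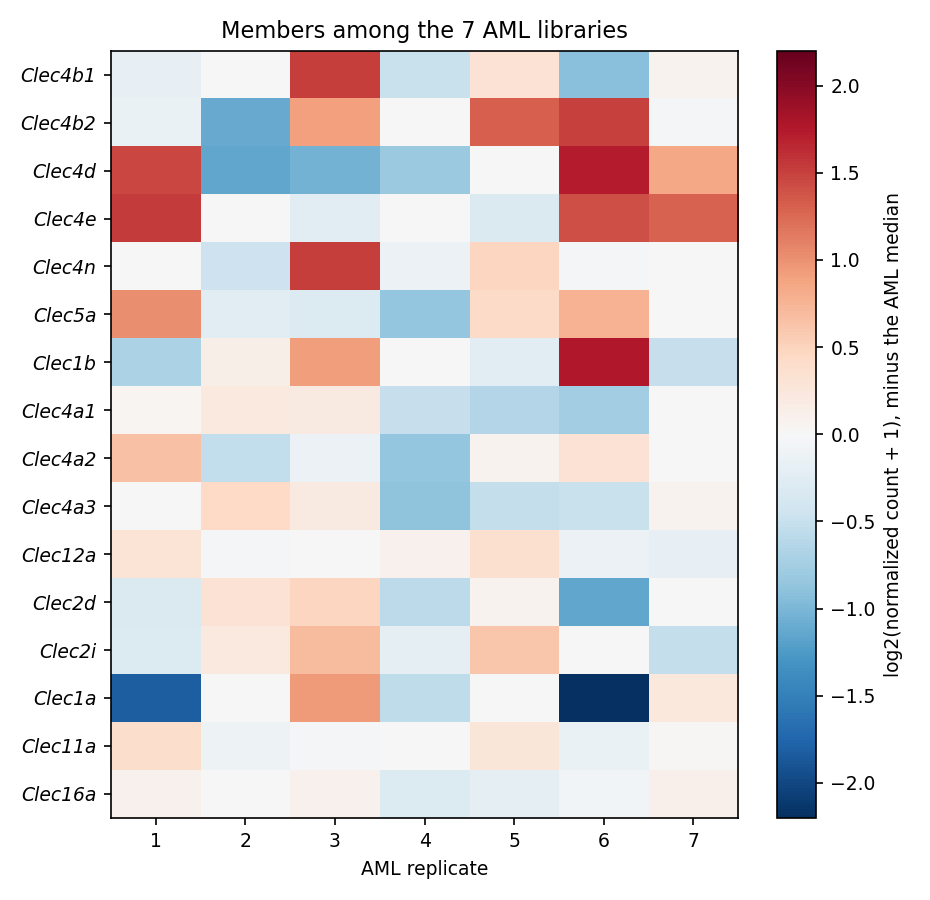
Log2(normalized count plus 1) of 16 Clec genes in the 7 AML libraries, each minus the median of the 7; red is above and blue below that median. Replicates 1, 6 and 7 are red for Clec4d and Clec4e, replicate 3 is red for Clec4b1 and Clec4n, and replicates 1 and 6 are blue for Clec1a.

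The adaptors and kinases through which the activating receptors work were measured as a list of 13 genes, all of which were tested. Against whole marrow limma called 6 higher and 0 lower (11 and 0 at an unadjusted p under 0.05), beside backgrounds of 27.3% and 11.3%, with a list median of 0.99 beside 0.67 for all genes, and with TMM scaling 0 were called higher and 1 (Src) lower (backgrounds 4.73% and 16%). Against lineage-negative marrow 9 were called higher and 0 lower (11 and 0 unadjusted), beside 17.7% and 12.5%, with a median of 1.62 beside 0.02. Fcer1g, the gene for FcRγ, averaged 5340 ± 750 in AML, 2377 ± 572 in whole marrow and 878 ± 133 in lineage-negative marrow, and was called higher than in both (1.19 and 2.60). Tyrobp, the gene for DAP12, was higher by 1.06 and 2.96. Lyn, Plcg2 and Prkcd were likewise called in both. Syk itself differed by 0.65 from whole marrow (adjusted p = 0.00627, limma) and by 1.37 from lineage-negative marrow (adjusted p = 8.41e-06).

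Of the 15 genes of the Card9 to NF-κB branch, 14 were tested. Against whole marrow 9 were called higher and 2 lower (backgrounds 27.3% and 11.3%). With TMM scaling 1 was called higher (Map3k14, the NF-κB-inducing kinase) and 2 lower, near the backgrounds of 4.73% and 16%. Against lineage-negative marrow 9 were called higher and 1 lower (backgrounds 17.7% and 12.5%). The list medians were 1.09 and 1.43, beside 0.67 and 0.02 for all genes. Card9 averaged 2415 ± 346 in AML and 1061 ± 241 in whole marrow, higher by 1.20 (adjusted p = 9.32e-05, limma), and exceeded lineage-negative marrow by 0.95 without reaching the size for a call. Malt1, Rel, Relb, Nfkb2, Map3k14 and Nlrp3 were called higher than in both normal groups. Il6, a cytokine target of this branch, was called lower than in both (−2.85 and −5.49), with AML at 3.13 ± 3.57, near the value of 3 reads. Il1b was lower than in whole marrow (−1.14, adjusted p = 0.0162) and higher than in lineage-negative marrow (4.24, adjusted p = 3.84e-08).

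Dectin-1, the best known receptor upstream of Card9, is encoded by Clec7a. It averaged 4703 ± 917 in AML, 2033 ± 621 in whole marrow and 380 ± 110 in lineage-negative marrow. Clec7a was called higher than in whole marrow (1.23, adjusted p = 0.000124, limma), though not with TMM scaling (0.54), and higher than in lineage-negative marrow by 3.64. Of the 3 phosphatases on the inhibitory side, Ptpn6 was called higher than in both normal groups (1.06 and 1.60), Inpp5d higher than in whole marrow (1.13), and Ptpn11 in neither; with TMM scaling none of the 3 was called against whole marrow.

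Genes that encode a C-type lectin domain under another name were taken as a further list of 39, of which 31 were tested. Against whole marrow 10 were called higher and 4 lower, near the backgrounds of 27.3% and 11.3%, and 3 and 5 with TMM scaling, where the backgrounds were 4.73% and 16%. Against lineage-negative marrow 16 were called higher and 3 lower (backgrounds 17.7% and 12.5%). The list medians were 0.60 and 1.44, beside 0.67 and 0.02 for all genes. Called higher than in both were Cd302, Mrc1, Cd209a, Thbd, Asgr2, Klrb1f, Klrd1 and Klrk1. Cd302, a receptor of myeloid cells, averaged 524 ± 157 in AML, 137 ± 65.1 in whole marrow and 36.6 ± 8.83 in lineage-negative marrow, higher by 2.03 and 3.78. Mrc1, the macrophage mannose receptor, exceeded the normal groups by 1.45 and 4.69. Prg2, an eosinophil granule protein, and Cd248 were called lower than in both, Prg2 by −5.70 and −4.60, beside 10 of 10 eosinophil and basophil markers called lower in AML than in both.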

How the data were processed

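RNA of 15 mouse marrow samples was sequenced from TruSeq stranded total RNA libraries, per the labels' protocols. The submitters' processing notes name STAR, Partek, DESeq2 and mm10, without versions or settings; the strand used for counting is not given in the sources used here. The deposited signal values are normalized counts: the authors divided estimated reads by 1 size factor per library, of the poscounts type per the file name. In each library 81.2% to 86.4% of low values were whole multiples of the value of 1 read, within 0.02 of a step, so whole reads were not recovered, and depth was estimated from the totals and that step. Floors cover counting error only.

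Log2 values with a pseudocount of 1 were fitted with limma 3.58.1 (R 4.3.3, 3 group means, mean-variance trend, two-sided) for the 18941 genes at 10 or more in at least 4 samples. Fold changes on this scale understate changes of low genes. Adjusted p-values follow Benjamini and Hochberg over these genes, and the procedure was tested on simulated data. TMM scaling was written in R for this purpose. Exonic lengths are from GENCODE vM21 and promoters from RefSeq (GRCm38.p6). None of the 29 members has the same start in GRCm38 as in the table, so only distances between starts are given from it. Members with a mean of at least 100 in a group, or called and at least 50, are described in full, with each normal library's value and the lowest, median and highest of AML, and the others as ranges. From the other lists, genes called in both AML comparisons and the most abundant are named, and Src, Il1b, Inpp5d, Ptpn11 and Klrb1b as list members of interest, chosen after their values were seen. The members and all lists were chosen with earlier results of these data known. Alternatives were other pseudocounts, filters, scalings and fits, the replicate number as a block, subtraction of the olfactory receptor mean, leaving out libraries and, chosen after seeing the data, limma voom on estimated reads.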

Additional observations from a re-analysis of the deposited data

Results flagged for a closer look

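In 48 groups of member values, 4 held a library whose gap to its nearest neighbour exceeded Dixon's 95% critical value. For normally distributed values chance alone gives about 1 in 20. The gaps were taken on normalized counts rather than log2 values, so that rate may not apply here. All 4 libraries lay on the high side. Clec4b1 in AML replicate 3 was 344, and the next AML library was at 149. Clec4n in the same library was 131, next to 63.2. Clec4a1 in lineage-negative replicate 1 was 39.0, and the next of its group was 5.22. Clec2i in lineage-negative replicate 3 was 169, next to 115. The calls of Clec4b1 and Clec4n against lineage-negative marrow held without AML replicate 3, at 5.37 for Clec4b1, and Clec4b1 exceeded whole marrow by 2.25 without it.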

How the results depend on the processing

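Of 983 log2 differences of the 16 fully described members recomputed under alternatives, 904 kept their direction and their side of the threshold, 31 fell short of it, 16 passed it and 32 changed sign; the causes were not tested. Against whole marrow, the 10 members called higher became 4 with TMM scaling and 3 with limma voom, and the 2 called lower became 4 with all genes kept (adding Clec2e and Clec4f), 1 at a mean of at least 50 and 0 after olfactory subtraction. The 14 called higher than lineage-negative marrow became 9 at a mean of at least 50, where 5 low members are no longer tested. The 1 called higher in lineage-negative than in whole marrow became 2 with quantile scaling and 2 after olfactory subtraction. Without a single library, 8 to 11 and 1 to 3 members were called higher and lower than whole marrow, 13 to 15 and 0 to 0 against lineage-negative marrow, and 1 to 1 and 10 to 12 between the normal groups. Same-numbered samples were not treated as paired. Their deviations from the group means correlated at −0.288 to 0.171, 2 of 12 over 0.1, which cannot settle whether they came from the same mice. With the replicate number as a block, 9 members were called higher and 3 lower than whole marrow (Clec4d added, Clec2g lost). That fit called 15 and 0 against lineage-negative marrow, and 1 and 11 between the normal groups.

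Signs changed for members that did not pass. Against whole marrow with TMM scaling the log2 differences were −0.55 (Clec4b2), −0.65 (Clec4e), −0.27 (Clec4n), −0.21 (Clec4a2) and −0.0101 (Clec12a); with voom they were −0.57, −0.66, −0.31, −0.21 and −0.011. Quantile scaling gave −0.25 for Clec4b2, −0.71 for Clec4e, −0.27 for Clec4a2 and −0.062 for Clec12a, and the block gave −0.31 for Clec4b2 and −0.15 for Clec4e. Clec4b2 was at 0.37 without AML replicate 2, −0.30 without AML replicates 5 and 6, −0.033 without AML replicate 5, −0.066 without AML replicate 6 and −0.071 without whole marrow replicate 1. Clec4e was at −0.12, −0.097 and −0.078 without AML replicate 1, 6 or 7 and −0.35 to 0.23 over the whole marrow libraries left out, replicate 1 giving the former. Against lineage-negative marrow Clec1b was at −0.022 with quantile scaling, −0.067 without AML replicates 5 and 6 and −0.10 without AML replicate 6; leaving out a lineage-negative library gave −0.27 (replicate 1) to 0.39. Between the normal groups Clec16a was at −0.025, −0.10 and −0.016 with TMM, quantile scaling and voom, and Clec1a at 0.74 after olfactory subtraction. Depth limits the low members: whole marrow is the shallowest group, and values there near the olfactory receptor mean cannot be read as expression.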
